A study of Mus musculus with 288 samples.

Results

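The lung of mice kept in normoxia was sampled around the clock, and its transcripts were compared between the subjective day and the subjective night. The 12 libraries of 1:30, 4:30, 7:30 and 10:30 formed the day and the 12 libraries of 13:30, 16:30, 19:30 and 22:30 formed the night. Of 35904 genes in the table, the 11218 with a mean of at least 5 TPM (the share of each gene among transcripts, corrected for length and scaled to a fixed total) were tested. At that limit the gene just outside was Cfap58 with a mean of 4.99942 TPM and the gene just inside was Prkaa2 with 5.00063 TPM. The sampling times, and not any measured value, set the groups.

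The mice were wild type C57BL/6J males, 8 weeks old, which had lived for 7 days in normoxia and were then released into constant darkness in normoxia. Tissue was taken on day 2 of darkness, from 3 mice at each of the 8 time points, with no light to mark day from night. The lung IH mice used for comparison had received intermittent hypoxia during the light phase of those days, and liver and kidney in normoxia are other tissues of the same design. The whole series holds 288 libraries, of which 24 are lung in normoxia. Lung tissue was homogenised, so fewer cells of a type and less RNA per cell cannot be told apart.

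The mammalian clock is a loop of transcription in which BMAL1 (encoded by Arntl) and CLOCK switch on their own repressors, the PER and CRY proteins and the REV-ERB receptors. REV-ERB receptors in turn hold Arntl down, while ROR receptors raise it. In the lung, clocks run in airway epithelium, alveolar cells, vessels and immune cells, and they are known for timing immune cell traffic and responses to glucocorticoids. The PAR bZIP factors DBP, TEF and HLF carry the rhythm to further genes, and NFIL3 binds the same sites as a repressor.

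The DNA letters that these factors are known to bind, and the cAMP element searched for beside them, stood in only some of the promoters. Promoters of RefSeq (GRCm38.p6), from 250 bases before to 50 bases after the start of the transcript, matched 16 of the 19 clock genes tested. The E-box bound by BMAL1 and CLOCK (CACGTG, the same on both strands) was found in 5 of the 16 clock genes with a promoter, against 7.15% of all 32851 promoters and 9.81% of promoters of the genes tested. The 5 were Bhlhe41, Ciart, Cry1, Per1 and Tef. A clock gene counted if any of its promoters matched, while the shares count single promoters, which favours clock genes with several promoters. The D-box (TTATGTAA or TTACGTAA, both strands) was found in Per3 and in 1.06% of all promoters, and the ROR element (both strands) in Arntl and in 0.606%. The cAMP element (TGACGTCA) was found in Hlf and in 1.79% of all promoters. The promoters of Nr1d1 and Dbp, which had the largest day-night differences, held none of these letters, nor did those of the other 4 genes called between day and night.

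The promoters with the most matches of their kind are shown, with matches in capitals. For Ciart (chr3:95882179-95882478, minus strand) these are 3 E-boxes, for Per3 (chr4:151044616-151044915, minus strand) 2 D-boxes, and for Arntl (chr7:113207261-113207560, plus strand) 1 ROR element.
Ciart: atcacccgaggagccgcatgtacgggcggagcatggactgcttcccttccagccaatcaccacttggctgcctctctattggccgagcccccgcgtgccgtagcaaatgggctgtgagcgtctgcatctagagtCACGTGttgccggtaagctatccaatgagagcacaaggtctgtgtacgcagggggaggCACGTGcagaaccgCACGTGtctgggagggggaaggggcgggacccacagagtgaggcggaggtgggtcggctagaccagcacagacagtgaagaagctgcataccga
Per3: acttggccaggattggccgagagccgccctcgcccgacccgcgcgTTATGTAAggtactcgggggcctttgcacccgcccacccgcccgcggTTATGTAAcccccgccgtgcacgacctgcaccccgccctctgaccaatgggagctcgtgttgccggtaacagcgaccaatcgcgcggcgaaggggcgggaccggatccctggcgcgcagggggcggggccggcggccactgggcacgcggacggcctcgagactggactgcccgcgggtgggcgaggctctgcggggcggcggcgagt
Arntl: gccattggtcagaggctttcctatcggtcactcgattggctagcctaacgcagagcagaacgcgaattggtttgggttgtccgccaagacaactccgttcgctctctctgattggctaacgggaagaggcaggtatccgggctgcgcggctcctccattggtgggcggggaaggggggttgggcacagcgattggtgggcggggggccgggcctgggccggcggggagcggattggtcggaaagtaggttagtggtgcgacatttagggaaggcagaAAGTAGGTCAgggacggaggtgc
A match is a description of the letters in this window and says nothing of binding in these lungs.

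The 24 libraries carried markers of the labelled tissue. All 12 markers of alveolar type 2 cells, 8 of alveolar type 1 cells, 9 of club cells and 12 of endothelial cells passed the filter, and none of these differed between day and night at an unadjusted p of 0.05. Correlations of each library with the others had medians of at least 0.964 except in the 1:30 replicate 2 library, where it was 0.922, and that library also had the most genes detected (25400). The day libraries had 22897 ± 857 genes detected and the night libraries 22490 ± 557 (SD, n = 12 each), which did not pass a permutation test (2-sided p = 0.186, 100000 resamples). In the 1:30 replicate 2 library, Ager had 1084 TPM, against 2216 and 2302 TPM in the other 1:30 libraries. Cav1, like Ager a marker of alveolar type 1 cells, had 348 TPM, against 1233 and 924 TPM. The ciliated cell marker Ccdc113 lay the other way, with 38.6 TPM against 14.5 and 19.1 TPM. So did the club cell marker Bpifa1, with 2177 TPM against 852 and 591 TPM. These genes were chosen after their values were seen. Blood and muscle markers also varied between libraries. The 8 listed erythroid genes, among them the globins of blood, summed to a median of 54174 TPM by day (lowest 37264, highest 95826) and 69188 TPM by night (lowest 54877, highest 165257). All 7 erythroid genes tested were higher by night (6349 of all 11218 genes lay that way). Of these 7, 3 had an unadjusted p of 0.05 (5.8% of all genes did so in that direction), while 0 were called after adjustment. Skeletal muscle genes summed to 485 TPM in 1 day library against a day median of 26.7 TPM. The part of blood RNA, muscle RNA or a differing mix of lung cells in the results was not tested.

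Few genes differed between day and night as wholes. With limma on the log2 of scaled TPM plus 0.5, 12 against 12 libraries, 5 of 11218 genes (0.0446%) passed a Benjamini-Hochberg adjusted p of 0.05, of which 2 (0.0178%) were higher by day and 3 (0.0267%) higher by night. Of these, 2 (0.0178%), Nr1d1 and H3c15, also differed by at least 1.5-fold, a size that 53 genes (0.472%) reached when no test was asked. Before adjustment 993 genes (8.85%) had a p of 0.05 or less, 342 higher by day (3.05%) and 651 higher by night (5.8%). The median size of the day-night difference over all genes was 0.06 on the log2 scale, against a median standard error of 0.07. The call of these 5 genes needed all replicates: without replicate 1, 2 or 3 the same test called 0 genes, with 743, 1051 and 837 at an unadjusted p of 0.05. Without the 1:30 replicate 2 library it called 17, which included the 5. Without 1 time point it called 0 genes (4:30, 7:30, 16:30 or 19:30 left out) to 51 genes (1:30 left out).

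Nr1d1 and Txnip were the genes higher by day. Nr1d1 (chr11:98767932-98775377, GRCm38), which encodes the repressor REV-ERB alpha, ran from 29.0 TPM at the lowest through a median of 68.5 to 136 TPM by day, and from 5.33 through 16.3 to 44.6 TPM by night. Day and night overlapped at their edges, with 1:30 at the low end of the day and 22:30 at the high end of the night. The log2 difference was 2.03 (SE 0.36, limma adjusted p = 0.0258), with the same sign in each of the 3 replicate numbers. Txnip (chr3:96557957-96561857), which encodes a binder of thioredoxin that limits glucose uptake, ranged from 383 through 431 to 557 TPM by day and from 301 through 354 to 385 TPM by night. Its day libraries lay higher with a narrow overlap, and the log2 difference was 0.34 (SE 0.06, limma adjusted p = 0.0302), a call lost when the fit allowed for the genes detected in each library.

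H3c15, Mmp3 and Opa3 were the genes higher by night. H3c15 (chr3:96238479-96239127), a replication-dependent histone H3 gene, ranged from 3.38 through 4.91 to 6.33 TPM by day and from 6.34 through 7.57 to 10.9 TPM by night. It was the single gene of 11218 whose deposited TPM did not overlap between day and night (0.00891%), and the nearest values on either side were those 6.33 and 6.34 TPM. The log2 difference was -0.61 (SE 0.10, limma adjusted p = 0.0147). Histone genes have near-identical copies whose reads Kallisto divides. How fully the poly(A) selection of these libraries captured transcripts of this histone class was not tested. The level of H3c15 is uncertain on both counts. Mmp3 (chr9:7445822-7455975), which encodes the matrix protease stromelysin-1, ranged from 6.38 through 9.02 to 11.2 TPM by day and from 9.80 through 12.5 to 16.9 TPM by night. Its log2 difference was -0.51 (SE 0.09, limma adjusted p = 0.0240). Opa3 (chr7:19228389-19246817), which encodes a mitochondrial protein, ranged from 12.9 through 14.97 to 18.8 TPM by day and from 15.5 through 18.4 to 21.0 TPM by night. Its log2 difference was -0.24 (SE 0.05, limma adjusted p = 0.0445), a call lost on TPM as deposited, at a filter of 1 TPM and when the fit allowed for genes detected.

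**Figure D1:**
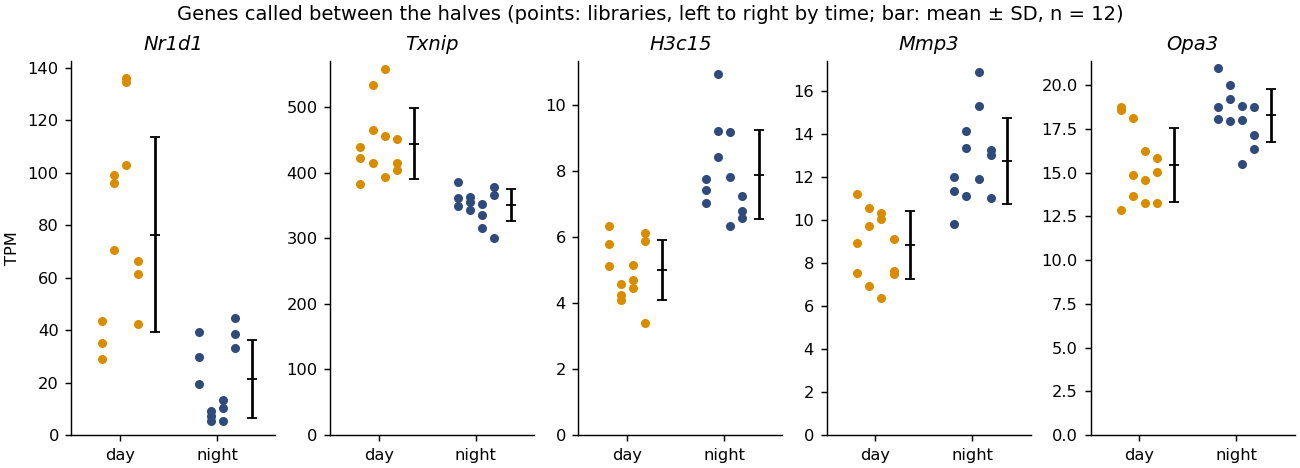
TPM of the 5 genes called between day and night, with 1 point per library (12 day, orange, and 12 night, blue) placed left to right by time within day and night, and bars for the mean ± SD. Nr1d1 and Txnip sit higher by day, and H3c15, Mmp3 and Opa3 higher by night, with overlap in all but H3c15.

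The clock genes were rhythmic, mostly without a call between day and night. A cosine of 24 hours fitted to the same 24 libraries passed limma's test at an adjusted p of 0.05 for 1185 of 11218 genes (10.6%), and for all 19 clock genes tested. Rorb was below the filter. Of these 19, 1 was called between day and night. Among the positive arm, Arntl averaged 17.5 ± 0.94 TPM at 19:30 and 2.15 ± 0.93 TPM at 10:30 (SD, n = 3), with a fitted peak at 22.3 h and a log2 amplitude of 1.43. Its day-night difference was -0.76 (SE 0.41), with an adjusted p of 0.63 in limma. Npas2, a partner of BMAL1 like CLOCK, peaked at 22.3 h with an amplitude of 1.26, and Clock at 20.9 h with 0.28. The receptor gene Rora, with an amplitude of 0.20, peaked at 11.1 h. The cosine calls of Clock and Rora were lost on TPM as deposited. That of Clock was also lost without replicate 2 or 3, and that of Rora without replicate 1 or 2. The repressor gene Ciart lost its cosine call without any one replicate.

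The repressors followed one another through the day. Nr1d1 peaked at 6.1 h, averaging 125 ± 18.8 TPM at 7:30 and 7.17 ± 1.88 TPM at 16:30 (SD, n = 3). Nr1d2, which encodes REV-ERB beta, peaked at 8.98 h with a day-night difference of 1.08 (SE 0.32, limma adjusted p = 0.237). Bhlhe41 peaked at 8.74 h, Ciart at 9.94 h and Bhlhe40 at 10.1 h, all 3 of them further repressors of BMAL1 and CLOCK. Per3 peaked at 10.8 h, Per1 at 11.1 h, Cry2 at 11.9 h and Per2 at 12.8 h. Per2 averaged 22.4 ± 1.90 TPM at 10:30 and 3.96 ± 1.49 TPM at 4:30 (SD, n = 3), and across the border at 13:30 its 3 mice had 24.4 to 25.6 TPM. Its day-night difference was -0.27 (SE 0.40, limma adjusted p = 0.881), although its log2 amplitude was 1.35. Cry2 had a day-night difference of 0.02 and Per1 of 0.51 (SE 0.37). The latest repressors were Cry1 at 16.2 h (day-night difference -0.78, SE 0.17) and Nfil3 at 19.98 h (-0.86, SE 0.18), each with a limma adjusted p of 0.0844.

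Of the output factors, Dbp had a day-night difference as large as that of Nr1d1 but did not pass. Dbp ran from 24.1 TPM through a median of 90.7 to 188 TPM by day and from 6.60 through 14.8 to 82.6 TPM by night. The day libraries of 1:30 averaged 26.5 ± 3.01 TPM and the night libraries of 13:30 averaged 58.2 ± 26.7 TPM (SD, n = 3), so day and night overlapped. Its log2 difference was 2.02 (SE 0.43, limma adjusted p = 0.0844) and its peak was at 8.1 h. Hlf peaked at 10.2 h with a day-night difference of 0.46 (SE 0.24), and Tef at 11.0 h with 0.29 (SE 0.27), neither of which passed.

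**Figure D2:**
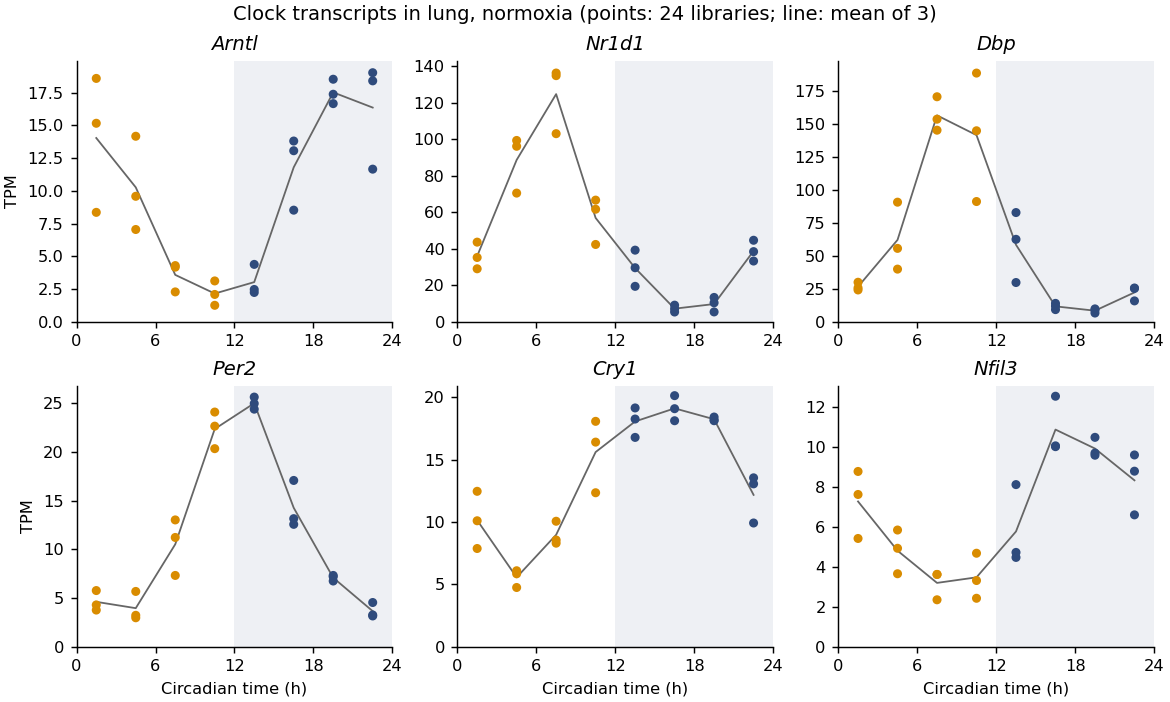
TPM of 6 clock genes by circadian time in hours, with 1 point per library (day orange, night blue), a line through the mean of 3 mice and shading for the subjective night. Nr1d1 and Dbp peak inside the day and Cry1 inside the night, while Per2 is high on both sides of 12 h and Arntl on both sides of 24 h.

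Most rhythmic transcripts of the lung peaked near the borders between day and night. Of the 1185 genes with a cosine call, 919 (77.6%) peaked within 3 hours of 0 h or 12 h, 578 of them near 12 h and 341 near 0 h. Near the middle of the day, 6 h, peaked 103, and near the middle of the night, 18 h, peaked 163. The windows near the borders and those near the middles cover equal hours, so evenly spread peaks would fall equally in both. Of the 1185, 369 had an unadjusted p of 0.05 or less between day and night (8.85% of all genes did). The same share near the borders was 46.1% of 518 genes in lung IH, 58.9% of 1505 in the liver and 37.3% of 2090 in the kidney, and these differences between tissues were not tested. The count of cosine calls moved with the libraries used, from 244 without replicate 1 to 650 without replicate 2, and was 572 on TPM as deposited, while the share near the borders was 83.6%, 69.5% and 79.9%. Of the 1185 genes, 149 kept the call under all 8 alternatives run.

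**Figure D3:**
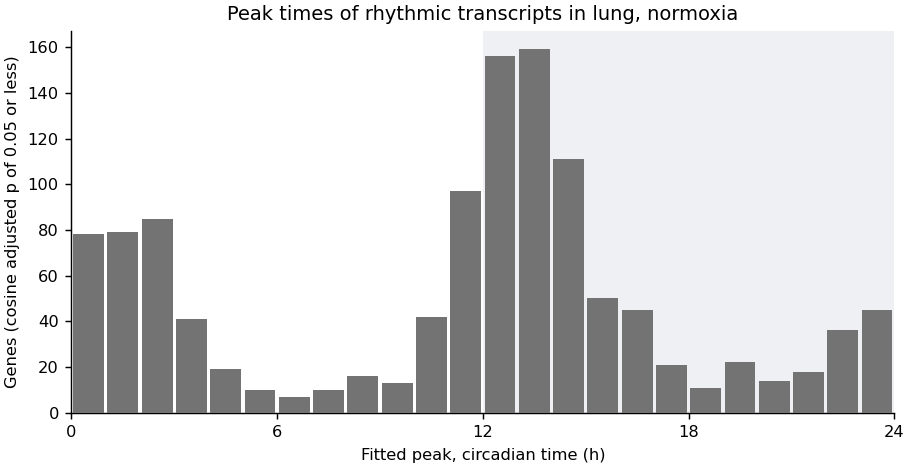
Number of genes with a cosine call in each hour of fitted peak time, in circadian time, with shading for the subjective night. The counts are highest around 12 h to 14 h (159 genes in the hour from 13 h) and lowest around 6 h (7 genes in the hour from 6 h).

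Measuring the day-night difference against the spread within time points widened the list. With time points as means and the spread taken among the 3 mice of a time point, 63 genes (0.562%) passed an adjusted p of 0.05 in limma, 20 higher by day (0.178%) and 43 higher by night (0.383%), and they included the 5. Fitted to the 8 time point means instead, 4 against 4, the same contrast called 0 genes, with 933 (8.32%) at an unadjusted p of 0.05. The first fit compares the day and night means of these 8 times with the spread between mice, and the second compares them with the spread between times. Of the 63, 62 also had a cosine call. Clock genes that the within-time-point fit called included Nr1d1, Dbp, Nr1d2 and Bhlhe41 higher by day and Nfil3, Cry1 and Arntl higher by night. The following members were chosen after their values were seen. Adm, which encodes the vasodilator adrenomedullin, had a log2 difference of -0.72 (limma adjusted p = 0.0156 within time points). Pik3ip1, an inhibitor of PI3 kinase, had 0.36 (limma adjusted p = 0.00231) and Hdac11, a histone deacetylase, 0.34 (limma adjusted p = 0.00244).

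Heat shock chaperones lay higher by night throughout their list, with no call between day and night. All 19 tested were higher by night, each at an unadjusted p of 0.05, against 651 of all 11218 genes (5.8%), and 0 passed the adjusted p. The median log2 difference of the list was -0.39, against -0.01 over all genes. Within time points 9 of the 19 passed (0.383% of all genes did so in that direction). Of the 19, 16 had a cosine call (10.6% of all genes did), with peaks from 13.9 h to 17.0 h. Of these 16, 1 (Hspb1) kept the cosine call under all 8 alternatives, against 149 of all 1185 genes with a cosine call. Hspa1b, one of the inducible HSP70 chaperones, averaged 64.9 ± 7.58 TPM at 13:30, 21.9 ± 12.6 TPM at 16:30 and 6.66 ± 0.92 TPM at 19:30 (SD, n = 3). Its near-identical copy Hspa1a averaged 43.8 ± 5.72 TPM at 13:30 and 4.65 ± 0.41 TPM at 4:30, and reads of this pair may be divided between them. Both were high in all 3 mice of 13:30, and low again by 19:30, so that the night held both the highest and some of the lowest values. The small heat shock protein gene Hspb1 was highest at 16:30 with 610 ± 244 TPM, against 205 ± 35.6 TPM at 1:30, and had a log2 day-night difference of -0.74 (SE 0.17, limma adjusted p = 0.0902). Hsph1, a nucleotide exchange factor of HSP70, averaged 70.5 ± 4.44 TPM at 13:30, 70.7 ± 25.5 TPM at 16:30 and 20.01 ± 3.74 TPM at 4:30 (SD, n = 3).

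The cold-inducible RNA-binding proteins lay the other way. Both genes of that list, Cirbp and Rbm3, were higher by day at an unadjusted p of 0.05 (3.05% of all genes). Rbm3 averaged 269 ± 52.7 TPM at 7:30 and 137 ± 35.0 TPM at 16:30 (SD, n = 3), with a day-night difference of 0.55 (SE 0.14, limma adjusted p = 0.121) and a call within time points (limma adjusted p = 0.0317). Cirbp averaged 125 ± 38.8 TPM at 4:30 and 57.6 ± 11.6 TPM at 13:30, with a day-night difference of 0.48 (SE 0.15, limma adjusted p = 0.291). Rbm3 peaked at 6.99 h and Cirbp at 4.05 h. Chaperones of the endoplasmic reticulum were higher by night in 14 of 15 (6349 of all 11218 genes lay that way), of which 10 had an unadjusted p of 0.05 (5.8% of all genes) and 0 were called between day and night. The largest difference in that list was that of Sdf2l1, a partner of the chaperone BiP, at -0.41 (SE 0.10, limma adjusted p = 0.121).

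**Figure D4:**
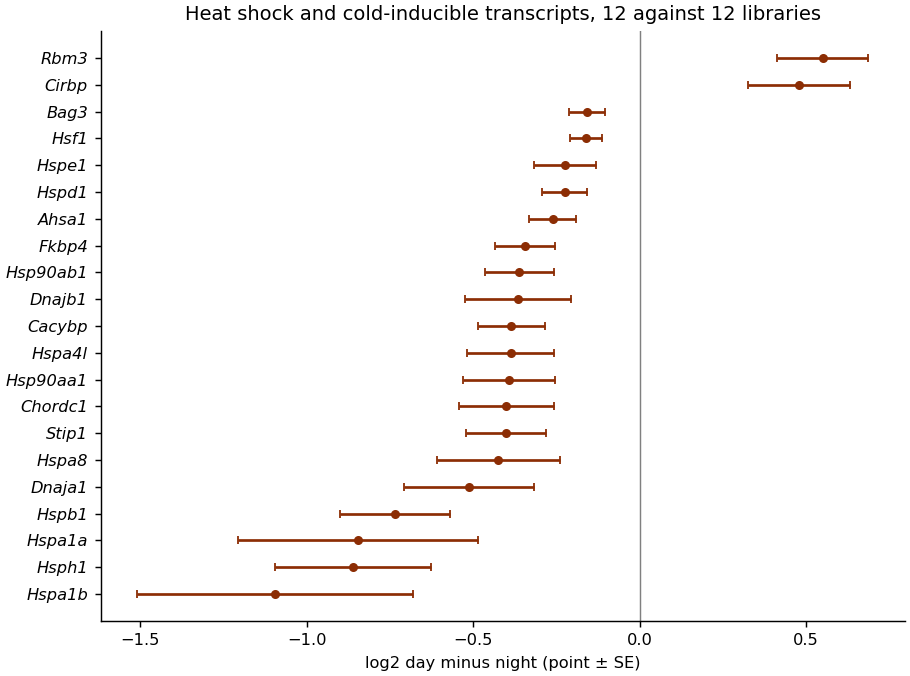
Log2 difference, day minus night, with its SE for the 19 heat shock genes and for Cirbp and Rbm3, from 12 against 12 libraries. All 19 heat shock genes lie below 0 and the 2 cold-inducible genes above 0, and none passed the adjusted p.

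The rhythmic genes among the receptor for glucocorticoids and its targets peaked around the end of the day. Of 13 tested, 6 had a cosine call (10.6% of all genes did), with peaks from 10.2 h to 13.7 h, and 0 were called between day and night. Tsc22d3, which encodes the anti-inflammatory protein GILZ, averaged 283 ± 73.3 TPM at 10:30 and 80.2 ± 21.5 TPM at 1:30 (SD, n = 3). Its day-night difference was -0.12 (SE 0.26) and its log2 amplitude 0.85. Fkbp5, a co-chaperone that limits the receptor, and the transcription factor Zbtb16 peaked at 12.3 h and 12.5 h, with day-night differences of -0.13 (SE 0.38) and -0.30 (SE 0.55). Both varied widely between mice, as in the 23.5 ± 22.2 TPM of Fkbp5 at 7:30 (SD, n = 3). Errfi1, Klf9 and Hsd11b1 were the other genes of the 6. Tsc22d3 and Klf9 kept the cosine call under all 8 alternatives, and each of the other 4 lost it without replicate 1.

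An epithelial chemokine and some genes of B cells and of myeloid cells peaked near the change from night to day, and they were chosen after their values were seen. Cxcl15, a chemokine of lung epithelium, averaged 954 ± 98.8 TPM at 4:30 and 342 ± 28.1 TPM at 13:30 (SD, n = 3), with a peak at 1.62 h. Its day-night difference of 0.37 (SE 0.20, limma adjusted p = 0.633) did not pass, and the libraries of 22:30 were also high, at 881 ± 36.1 TPM. It was the single called member of 9 chemokines tested. Of 9 lymphocyte markers tested, 4 had a cosine call (10.6% of all genes did), with peaks from 0.97 h to 1.68 h. They included the B cell genes Cd79a, Cd79b and Ms4a1, and Cd79a averaged 70.3 ± 8.85 TPM at 4:30 and 35.1 ± 2.12 TPM at 13:30. The lymphocyte markers Cd3d, Cd3e, Cd3g, Ccr7 and Nkg7 had no cosine call. Of 8 markers of neutrophils and monocytes tested, Ccr2, Il1b and Ly6c2 had a cosine call (10.6% of all genes did), with peaks from 0.71 h to 2.47 h. The most abundant markers of that list, S100a8 and S100a9, had no cosine call, and their day-night differences were -0.32 (SE 0.25) and -0.36 (SE 0.25). The cosine calls of the named B cell and myeloid genes were all lost without replicate 1, while that of Cxcl15 was kept under all 8 alternatives. No marker of club cells (9 tested), alveolar type 1 cells (8), ciliated cells (9), smooth muscle (10) or alveolar macrophages (9) had a cosine call.

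In further lists no gene was called between day and night, and 10.6% of all genes had a cosine call. Cosine calls numbered 3 of 9 clock kinases and ubiquitin enzymes (Csnk1d, Csnk1e, Usp2), 4 of 11 airway and vascular receptors and mediators (among them Chrm2, Edn1 and Ptgis), 2 of 9 genes of ion and water transport (Scnn1a, Atp1b1) and 3 of 13 NRF2 targets (Nfe2l2, Gsta3, Cat). They numbered 3 of 12 genes of sterol and fatty acid synthesis (Hmgcs1, Sqle, Scd1), 2 of 15 collagens and elastic fibre genes (Eln, Loxl1), 2 of 11 interferon-stimulated genes (Ifit3, Oas1a), 1 of 11 immediate early genes (Jun) and 0 of 9 PPAR targets. In the proliferation list 1 of 7 was called. This was Wee1, which encodes a kinase that holds back mitosis, with 14.5 ± 2.00 TPM at 10:30, 13.47 ± 1.22 TPM at 13:30 and 4.92 ± 0.69 TPM at 22:30 (SD, n = 3). Its peak at 12.1 h lay on the border. Of the genes named from these lists, Csnk1e, Gsta3, Ifit3 and Wee1 kept the cosine call under all 8 alternatives.

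The day against night difference was then compared with those of the same tissue after IH and of other tissues in normoxia. For lung normoxia against lung IH, the interaction called 0 of 11218 genes in limma, with 319 (2.84%) at an unadjusted p of 0.05. Nr1d1 had a day-night difference of 2.04 in normoxia and 2.73 after IH (difference -0.70, SE 0.55), and Cry1 had -0.79 and -1.13 (difference 0.34, SE 0.28). These intervals are wide and do not show the groups to be alike. On its own, lung IH had 96 genes called between day and night of 12055 tested (0.796%). The median spread between mice of a time point was 0.18 on the log2 scale in lung normoxia and 0.27 in lung IH.

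The liver differed from the lung in 124 of 6583 genes that had at least 5 TPM in both tissues (1.88%), 45 with a higher (0.684%) and 79 with a lower (1.2%) day minus night difference in the lung. On TPM as deposited the count was 56, with 30 higher and 26 lower. On its own the liver had 444 of 7268 genes called between day and night (6.11%). Of the named genes, Gabarapl1 (autophagy), Casp6 (a caspase), Fbxo21, Junb, Ddit4 and Tnnc1 kept their calls under every alternative run. Gabarapl1 had -0.04 in the lung and 0.96 in the liver (difference -1.01, SE 0.12), and Junb, an immediate early gene, 0.16 and 1.29 (difference -1.13, SE 0.18). Ddit4, an inhibitor of mTOR, had 0.23 in the lung and -1.23 in the liver (difference 1.46, SE 0.20, limma adjusted p = 1.00e-05).

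The kidney differed from the lung in 29 of 8341 genes (0.348%), 9 higher (0.108%) and 20 lower (0.24%), while on its own it had 845 of 9179 genes called between day and night (9.21%). On TPM as deposited the count was 52, with 50 higher and 2 lower, so that the direction of this list depended on the scaling. Without replicate 1, 2 or 3 it was 1, 4 and 1. Cry1 had -0.77 in the lung and -1.78 in the kidney (difference 1.01, SE 0.24, limma adjusted p = 0.0493), and this call was lost with a pseudocount of 2, at a filter of 1 TPM, without the 1:30 replicate 2 library and without any one replicate. Sdf2l1 had -0.40 in the lung and -1.40 in the kidney (difference 1.01, SE 0.21, limma adjusted p = 0.0163), and Igfbp3, which binds insulin-like growth factors, -0.21 and 0.46 (difference -0.67, SE 0.13, limma adjusted p = 0.0109). Nr1d1, Dbp and Per2 did not pass against either tissue.

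**Figure D5:**
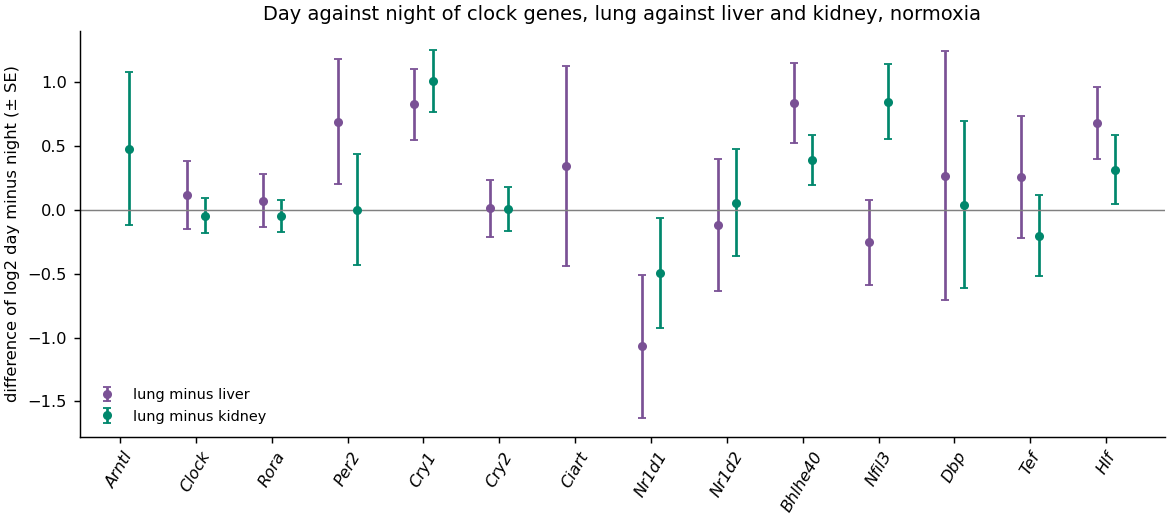
Difference between tissues in the log2 day minus night difference of 14 clock genes, lung minus liver (purple) and lung minus kidney (green), with SE, where the gene had at least 5 TPM in both tissues. Cry1 against the kidney (1.01) is the difference shown that passed, and Nr1d1 lies below 0 in both without passing.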

How the data were processed

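RNA was measured in 24 lung libraries of normoxia, and in 24 each of lung IH, liver and kidney for comparison. The authors quantified poly(A) reads with Kallisto against Ensembl mouse release 102 and deposited TPM per gene (mm10 and FastQC 0.11.3 per the submitters' processing notes). TPM keeps no count of reads, so the depth of each library, and the precision it gives, is unknown. The paper states a minimum and a median number of reads per sample. DESeq2 fits by the authors are not used here. Members and gene lists were chosen with earlier results of these data known.

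Each library was divided by its median ratio to the geometric mean of the libraries, 0.5 TPM was added and log2 taken, which understates the changes of low genes. TPM printed for libraries and time points is as deposited. The day-night difference was fitted with limma 3.58.1 in R 4.3.3, 12 libraries against 12, with a prior variance that follows mean expression, and p-values were 2-sided and Benjamini-Hochberg adjusted over all 11218 genes. Interactions used the libraries of both groups as independent, although tissues may come from the same mice, and genes of at least 5 TPM in both tissues (for lung IH, in lung normoxia). Peaks came from a cosine with a period of 24 hours. The fits were tested on simulated data. Genes named were the tested clock genes and the called genes with 1 sign in every replicate number. For interactions they were the clock genes that passed and the 5 largest in each direction. The plan also named the 4 called genes of largest difference of each other list, but no member of those lists was called between day and night. The cosine alternatives followed the clock genes and, in each list, up to 4 members with a cosine call and the largest amplitude. A few genes that the rule names are not reported here. Other list members were named after their values were seen. Genes detected were compared with Python 3.11.15 and scipy 1.17.1, and figures drawn with matplotlib 3.10.9. Gene positions and promoters are from RefSeq, GRCm38.p6. Alternatives were pseudocounts of 0.1 and 2, TPM as deposited, other filters, a replicate block, spreads by time point, a term for genes detected, and leaving out replicates or time points. Leaving out the 1:30 replicate 2 library was chosen after seeing the data.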

Additional observations from a re-analysis of the deposited data

Results flagged for a closer look

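The day against night difference itself differed between tissues by an interaction test in limma, which flagged 124 genes for lung against liver and 29 for lung against kidney. Against the liver, the named differences (lung minus liver, log2) were 1.52 for G0s2, 1.504 for Tnnc1, 1.46 for Ddit4, 1.41 for Tsku and 1.26 for Cyp2a5, and -1.13 for Junb, -1.12 for Fbxo21, -1.01 for Gabarapl1, -0.96 for Casp6 and -0.94 for Slc8b1. Against the kidney, they were 1.01 for Cry1, 1.01 for Sdf2l1, 0.79 for Gm10443, 0.76 for Gm5805 and 0.70 for Ddit4, and -0.79 for Olfr1033, -0.74 for Fnip2, -0.67 for Igfbp3, -0.67 for Zfp729a and -0.66 for Vps8. Of these 20 differences, 6 passed under every alternative, all of them against the liver. Groups held 3 or 12 mice, so none was of a size at which single outlying samples were looked for.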

How the results depend on the processing

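The 5 genes called between day and night, 2 of them past 1.5-fold, were all lost without any one replicate (0 and 0), without the 4:30, 7:30, 16:30 or 19:30 time point (0 and 0), on the 8 time point means (0 and 0) and with no filter on low values (0 and 0, with 30370 genes tested). The counts were 63 and 13 with the spread within time points, 51 and 9 without 1:30, 32 and 7 without 22:30, 3 called without 10:30, 5 past 1.5-fold without 13:30, and 17 and 4 without the 1:30 replicate 2 library. With a pseudocount of 2, 1 gene passed 1.5-fold. The causes were not tested. Of 1387 alternative values of 73 named day-night differences, 1380 kept their direction. Those that turned were Cry2 (-0.029 without replicate 1, -0.052 without 7:30, -0.12 without 10:30, -0.026 without 19:30 and -0.061 without 22:30, and 0.060 at the highest among the replicates left out) and Per2 (0.065 without 4:30 and 0.16 without 13:30).

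Genes with a cosine call numbered 244 to 650 with one replicate left out and 572 on TPM as deposited, and of 65 named genes 25 kept the call under all 8 alternatives, 15 of them among 18 clock genes. The interaction with the liver gave 17 to 34 genes with one replicate left out and 56 on TPM as deposited, and that with the kidney 1 to 4 and 52. The interaction with lung IH gave 0 throughout. The difference in genes detected (406) was 188 to 669 with one replicate left out, and passed in none of these.

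The labels do not say that a replicate number marks shared mice or days, and the numbers were not taken as pairs, because not every pair correlated over 0.1. Deviations of same-numbered libraries at 2 time points nevertheless correlated at a median of 0.278 over 84 pairs (lowest -0.653, highest 0.819, 56 over 0.1). The median was -0.163 over 168 pairs of different numbers (52 over 0.1). Deviations cancel within a time point, so this second median is tied to the first and is no separate comparison. Of the libraries, 15 of 24 correlated best with their own number, a hint from the data of a shared component. With a replicate block the day-night comparison called 11 genes, the cosine fit 1862, and the interactions 282 (liver) and 61 (kidney). The depth of each library is unknown for TPM, so its effect on low genes could not be weighed.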
